A study of Homo sapiens with 27 samples.

Results

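Benzo[a]pyrene (BaP), a hydrocarbon of fused aromatic rings found in smoke, tar and charred food, was compared with its solvent dimethyl sulfoxide (DMSO) in HepG2, a line grown from a human liver tumour that still makes many hepatocyte proteins. The 3 arrays labelled as BaP were taken of 27 in the series, which covered 9 such hydrocarbons with 3 arrays each. Every array carried RNA of cells kept for 48 h with the compound in the Cy5 dye and RNA of DMSO cells in the Cy3 dye, with no dye swap, so any bias of a probe towards one dye remains in its ratio. The labels give no dose, and they do not say whether the 3 arrays are separate cultures. The p-values therefore cover only spread among arrays that may be technical repeats. That spread was pooled over the arrays of the 8 compounds on this platform, not taken from the 3 BaP arrays alone. The groups used are BaP, the other 7 compounds on the same array platform (phenanthrene, PH, with chrysene, CHR, benzo[k]fluoranthene, BF, benzo[a]anthracene, BA, dibenzo[a,h]anthracene, DBA, 3-methylcholanthrene, 3MC, and naphthalene, NP) and the DMSO cells on each array.

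BaP is known as a ligand of the aryl hydrocarbon receptor (AHR), which moves to the nucleus, pairs with ARNT and turns on genes of oxidative metabolism. CYP1 enzymes and epoxide hydrolase turn BaP into a diol epoxide that binds guanine in DNA, and such bulky lesions are removed by nucleotide excision repair. DNA damage is known to raise genes for arrest, repair and death, and one of them, CDKN1A, through RB-family proteins and the DREAM complex, lowers genes of the cell division cycle.

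The labelled cell type was checked on defining markers. All 12 hepatocyte markers stood above background in both dyes on all 3 arrays, ALB, AFP and APOB among them. Of 15 markers of fibroblasts, endothelium and immune cells, COL1A1, DCN, LUM and CDH5 did not stand above background with BaP on any array. Over the 15 the mean intensity of a gene ran to 5810 units with BaP and to 11025 with DMSO, both in LYZ, with medians of 187 and 258. On the BaP arrays the median spot had 500 to 546 intensity units in Cy5 and 518 to 575 in Cy3, and 82.0% to 85.7% of probe spots stood above background with BaP against 87.9% to 92.4% with DMSO. Log2 ratios of the 3 arrays correlated at 0.966 to 0.969 across genes, which are not independent replicates.

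Values below are mean log2 ratios of BaP over DMSO ± SD of the 3 arrays after background correction and loess, and intensities are background-subtracted scanner units given for arrays 1, 2 and 3 in that order. Rose and fell are used of a gene only where limma gave a Benjamini-Hochberg adjusted p under 0.05 together with a change of at least 1.5-fold. Of 17290 genes tested, 2608 rose (15.1%) and 1735 fell (10.0%), so that 60.1% of the changed genes rose. With median centring in place of loess the counts were 3553 and 1331, and 72.7% rose. The median ratio over all genes was 0.03 with loess and 0.07 with median centring. At 4-fold or more, 186 genes rose (1.08%) and 169 fell (0.977%). At 16-fold or more, 17 rose (0.0983%) and 2 fell (0.0116%). Of the 186 genes, 174 stood above background with DMSO on all 3 arrays, and of the 169 genes that fell 4-fold, 165 stood above background with BaP on all 3. Less RNA of a gene per cell and fewer cells that express it cannot be told apart in RNA of a whole culture.

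**Figure D1:**
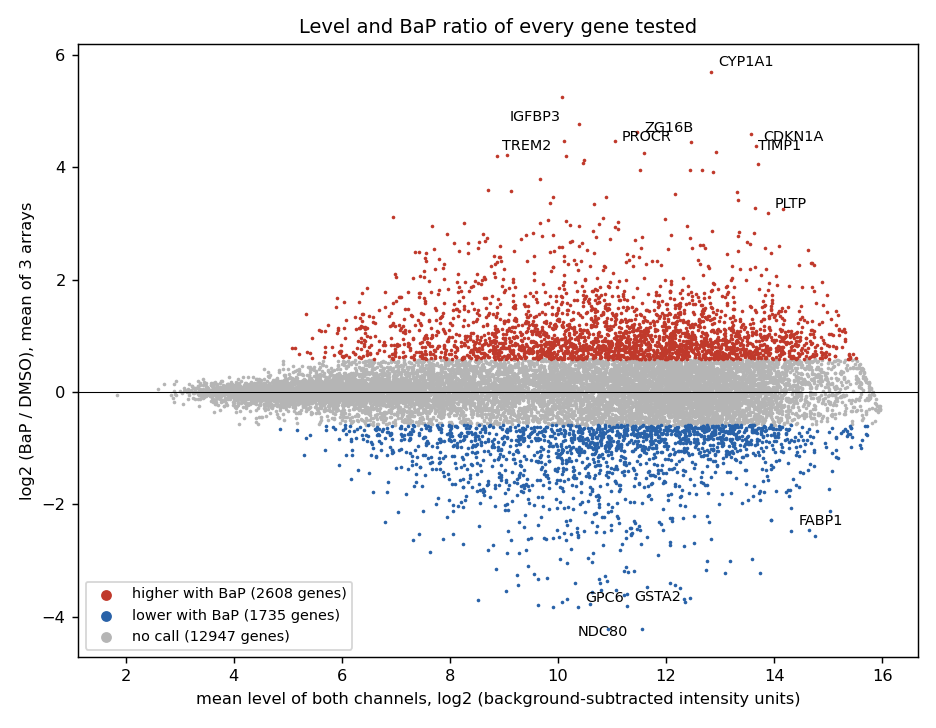
Each point is 1 of 17290 genes. The x axis is the log2 of the mean level in both channels in background-subtracted intensity units and the y axis the mean log2 ratio of BaP over DMSO on 3 arrays. Red points rose (2608), blue points fell (1735) and grey points had no call. CYP1A1 has the highest ratio, and NDC80 is among the lowest.

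CYP1A1, the cytochrome P450 that oxidises BaP and the best-known target of AHR, had the highest ratio of all genes tested, 5.70 ± 0.12 (adjusted p 2.79e-08). Its intensities were 59531, 50631 and 57317 with BaP, against 932, 863 and 1032 with DMSO. All 3 BaP values lay far above all 3 DMSO values, which adds nothing to the ratio the gene was picked for. Saturated pixels were found in Cy5 on 2 arrays. The gene lies at chr15:74719542-74725528 on the minus strand of GRCh38.p14. The RefSeq sequence from 250 bases before to 50 bases after its start, chr15:74725479-74725778, is shown because it holds the letters GCGTG once, 57 bases before the start. That is the core of the element that AHR with ARNT binds, written here in capitals. The same letters were in 45.5% of the 13693 promoters of tested genes and in 35.8% of those of genes that rose 4-fold. Binding was not tested.

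CYP1A1: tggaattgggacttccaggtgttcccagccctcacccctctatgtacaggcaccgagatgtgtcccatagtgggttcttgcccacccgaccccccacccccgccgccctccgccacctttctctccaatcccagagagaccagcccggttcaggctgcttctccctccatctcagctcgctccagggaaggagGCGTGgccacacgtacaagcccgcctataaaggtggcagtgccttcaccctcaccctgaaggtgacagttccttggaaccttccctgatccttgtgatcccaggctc

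Among 18 AHR target genes tested, 12 rose and 1 fell, beside 15.1% and 10.0% of all genes, with a median ratio of 1.15 against 0.03 over all genes. With Aquantile scaling between arrays the median was 0.76. UGT1A6, which joins glucuronic acid to phenols and shares its last exons with other UGT1A genes, had intensities of 2112, 2173 and 2736 with BaP, against 302, 272 and 324 with DMSO, a ratio of 2.77 ± 0.13. CYP1B1, a CYP1 enzyme that also activates hydrocarbons, had 595, 573 and 709 with BaP against 74, 54 and 80 with DMSO, or 2.55 ± 0.10. For both genes the BaP values lay above the DMSO values, which adds nothing to the ratios they were picked for. The transcriptional repressor HES1 rose by 2.57 ± 0.17, CYP2S1 by 2.47 ± 0.14 and the semaphorin and VEGF receptor NRP1 by 1.76 ± 0.03, with 0.27 to 1.83 on 3 other NRP1 probes.

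The repressor of the receptor, AHRR, rose by 1.75 ± 0.17, and the other feedback gene, TIPARP, by 0.70 ± 0.13. ALDH3A1, an aldehyde dehydrogenase, rose by 1.63 ± 0.09 at low intensities of 289, 252 and 271 with BaP, against 59, 58 and 64 with DMSO. CYP1A2 had 1.48 ± 0.05 on the probe used and 0.54 on another, and no longer passed where scaling between arrays or the spot median made the second probe stand for it. The amino acid transporter SLC7A5 likewise had 0.82 ± 0.03 on the probe used and -0.87 on another. TXNRD1 rose by 0.67 ± 0.18. NFE2, a factor of blood cell genes, fell by 1.48 on the log2 scale (SD 0.06). NQO1, a quinone reductase, had -0.34 ± 0.20 and NFE2L2, which encodes NRF2, had -0.52 ± 0.03, both short of 1.5-fold. The other members without a call were ASAP1 (0.46), LRAT (0.30) and EREG (0.08). AHR itself had intensities of 11737, 10667 and 11344 with BaP against 10211, 10007 and 9638 with DMSO, and its ratio of 0.03 ± 0.09 did not pass (adjusted p 0.657). ARNT had -0.01 ± 0.12, and of 11 genes of the receptor and its partners only the coactivator NCOA2 changed, at -1.18 ± 0.14.

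**Figure D2:**
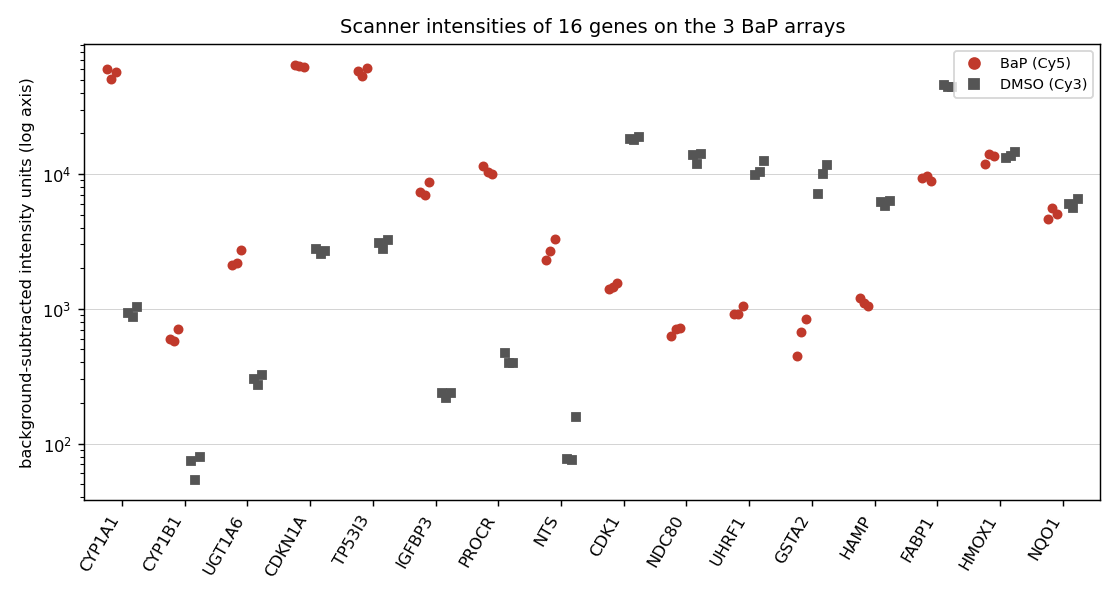
The y axis gives background-subtracted scanner intensity on a log scale for 16 genes on the x axis, with 3 red points for BaP (Cy5) left of 3 grey squares for DMSO (Cy3), 1 of each per array. CYP1A1 had 50631 to 59531 units with BaP and 863 to 1032 with DMSO, while the points of HMOX1 and NQO1 lie close together.

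The following lists of foreign-compound metabolism are read beside 15.1% risen and 10.0% fallen over all genes. Of 23 cytochromes P450 of families 2, 3 and 4, only CYP4A11, a fatty acid hydroxylase, changed (-0.83 ± 0.23, with -0.19 on another probe). Microsomal epoxide hydrolase EPHX1, which acts in the activation of BaP, had 0.48 ± 0.10 and did not reach 1.5-fold. 4 glutathione transferases of the alpha class, which conjugate electrophiles in liver, fell. GSTA2 had intensities of 447, 668 and 837 with BaP, against 7144, 9953 and 11604 with DMSO, a ratio of -3.81 ± 0.05. GSTA1 had -3.67 ± 0.14, GSTA5 -3.59 ± 0.10 and GSTA3 -3.18 ± 0.04. These genes are close copies of each other, and how far their probes share signal was not tested. Of the 19 glutathione transferases of the list 7 fell and 2 rose, GSTT2 (1.63 ± 0.02) and GSTZ1 (0.73 ± 0.06), and the list median of -0.10 became 0.14 with median centring. GSTP1 had 40 to 55 units with BaP and 40 to 48 with DMSO.

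Of 17 glucuronosyltransferases and sulfotransferases 2 rose, UGT1A6 and SULT1C4 (0.76 ± 0.06), and 4 fell, SULT1C2 (-1.23 ± 0.12) the most. Among 21 drug transporters the efflux pump ABCC1 rose by 1.55 ± 0.08 and ABCG2 by 0.83 ± 0.08, while the organic cation carrier SLC22A3 had -2.24 ± 0.02 and the efflux pump ABCC4 -1.75 ± 0.10 (3 rose and 5 fell). The steroid reductase AKR1D1, needed for bile acid synthesis, had -2.48 ± 0.08. NRF2 target genes, which answer oxidative stress, gave 7 that rose and 0 that fell of 23, with a median of 0.26. SRXN1, which repairs peroxiredoxins, had 36013, 41765 and 44062 units with BaP against 9467, 8936 and 10258 with DMSO (1.88 ± 0.12), and GCLM, a subunit for glutathione synthesis, rose by 0.89 ± 0.10. Haem oxygenase HMOX1 had 11799, 14108 and 13469 units with BaP against 13237, 13589 and 14424 with DMSO, groups that overlapped before normalisation (-0.24 ± 0.08).

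Metallothioneins, which bind zinc and copper, split. MT2A was at least 3.89-fold higher with BaP, with Cy5 saturated on all 3 arrays, whereas MT1F had 4485, 4315 and 5345 units with BaP against 35241, 38868 and 44785 with DMSO (-3.22 ± 0.13). Of the 11 genes of that list 3 rose and 3 fell, beside 15.1% and 10.0% of all genes. Besides MT2A, those that rose were not metallothioneins but the zinc exporter SLC30A1 (0.84 ± 0.06) and the zinc sensor MTF1 (0.65 ± 0.07). Those that fell were MT1F, MT1M and MT1E. Metallothioneins are near-identical in sequence, and signal shared between their probes was not tested.

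Damage-induced genes of arrest and feedback rose almost throughout. Of 29 tested, 28 rose and 0 fell (15.1% and 10.0% of all genes), with a median of 1.69, and CCNG1 alone had no call (-0.29 ± 0.11). CDKN1A, the inhibitor of cyclin-dependent kinases, was at least 20.7-fold higher, with 64569, 63279 and 61753 units with BaP, against 2792, 2562 and 2665 with DMSO. All 3 Cy5 spots held saturated pixels, and another probe of the gene had 3.14. FDXR, a mitochondrial reductase, was at least 9.55-fold higher, with the same limit. The zinc finger protein ZNF385A rose by 3.35 ± 0.19, PHLDA3, a brake on AKT, by 2.71 ± 0.15, and the antiproliferative BTG2 by 2.35 ± 0.03. The ubiquitin ligase MDM2 rose by 1.31 ± 0.16. PLK3 rose by 2.62 ± 0.05.

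Of 30 death receptor and apoptosis genes 15 rose and 0 fell (15.1% and 10.0% of all genes), with a median of 0.65. TP53I3, a quinone oxidoreductase, was at least 16.7-fold higher, with 58487, 53565 and 61249 units with BaP against 3096, 2780 and 3238 with DMSO and Cy5 saturated throughout. BIK, a BH3-only killer protein, rose by 2.51 ± 0.10 and the nuclease AEN by 1.84 ± 0.02. The death receptor FAS rose by 1.80 ± 0.02 and BAX by 1.53 ± 0.14, with 0.08 and 1.64 on other BAX probes. BBC3, which encodes PUMA, had -0.33 ± 0.11 on the probe used but 1.25 and 1.34 on 2 others, so its direction depends on the probe. The stress cytokine GDF15 was at least 5.75-fold higher.

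Among 23 genes of nucleotide excision repair 5 rose and 1 fell, beside 15.1% and 10.0% of all genes. DDB2, which finds lesions, had 23804, 27053 and 27146 units with BaP, against 3993, 3982 and 4317 with DMSO (2.50 ± 0.07). The lesion sensor XPC rose by 1.09 ± 0.12, the incision partner ERCC1 by 1.65 ± 0.07 and the ligase LIG1 by 1.10 ± 0.18, while CETN2, a partner of XPC, fell by 1.19 on the log2 scale (SD 0.01). Of 16 translesion genes, PCNA (1.24 ± 0.12) and the bypass polymerase POLH (0.81 ± 0.32) rose, and 4 fell, RAD18 (-1.71 ± 0.10) and USP1 (-1.67 ± 0.07) among them. Of 30 homologous recombination and Fanconi genes 0 rose and 22 fell, with a median of -1.15. RAD51AP1 had 383, 356 and 373 units with BaP, against 4394, 4166 and 4700 with DMSO (-3.39 ± 0.08). The helicase BLM had -2.87 ± 0.06 and RAD54L -2.31 ± 0.08.

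Of 24 mismatch and base excision repair genes 4 rose and 6 fell, again beside 15.1% and 10.0% of all genes. The glycosylase NEIL3 had -3.70 ± 0.12 and the exonuclease EXO1 -1.93 ± 0.25, while APEX2 rose by 0.95 ± 0.04. Checkpoint kinases and mediators had 0 risen and 13 fallen of 26. The phosphatase CDC25C, which opens mitosis, had 548, 548 and 639 units with BaP against 6190, 5524 and 6317 with DMSO (-3.27 ± 0.08), CDC25A had -2.31 ± 0.09 and CHEK1 -1.51 ± 0.14. ATM, which senses strand breaks, had -0.05 ± 0.08 on the probe used and -0.62 and -1.02 on 2 others.

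Genes of mitosis fell. Of 26 mitotic kinases, cyclins and ubiquitin ligase genes, 23 fell and 0 rose (10.0% and 15.1% of all genes), with a median of -2.58. CDK1, the kinase that starts mitosis, had 1392, 1462 and 1546 units with BaP, against 18221, 17966 and 18747 with DMSO, a ratio of -3.68 ± 0.03 (adjusted p 1.66e-21). Values within each group lay close together, and the gap between the groups adds nothing to the ratio the gene was picked for. The mitotic kinase PBK had the lowest ratio of all (-4.22 ± 0.05), the spindle checkpoint kinase TTK had -3.68 ± 0.25, AURKB -3.55 ± 0.02, PLK1 -3.22 ± 0.04 and CCNB1, the cyclin partner of CDK1, -2.68 ± 0.10. CCNB2 had -3.48 ± 0.26 on the probe used and 0.03 on another. No call was made for FZR1 (0.27), PTTG1 (-0.14) and UBE2S (-0.35).

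Of 35 kinetochore and centromere genes, 31 fell and 0 rose (10.0% and 15.1% of all genes), with a median of -1.84. NDC80, which ties kinetochores to microtubules, had 627, 707 and 723 units with BaP, against 13846, 11944 and 14074 with DMSO, or -4.21 ± 0.17, and its other probe also had -4.21. Its partner NUF2 had -3.77 ± 0.10 and SKA3, of the same attachment, -3.74 ± 0.13. Of 29 kinesin and spindle genes 28 fell and 0 rose, with a median of -2.50. The kinesin KIF15 had 210, 228 and 255 units with BaP against 3729, 3906 and 4320 with DMSO, and its ratio of -3.82 ± 0.0023 hardly differed between arrays. ASPM had -3.52 ± 0.14 and HMMR -3.52 ± 0.12. TUBB, a tubulin used in all cells, had no call (-0.09). DEPDC1, a gene of dividing cells, had -3.79 ± 0.08 on the probe used and -3.78 on another.

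**Figure D3:**
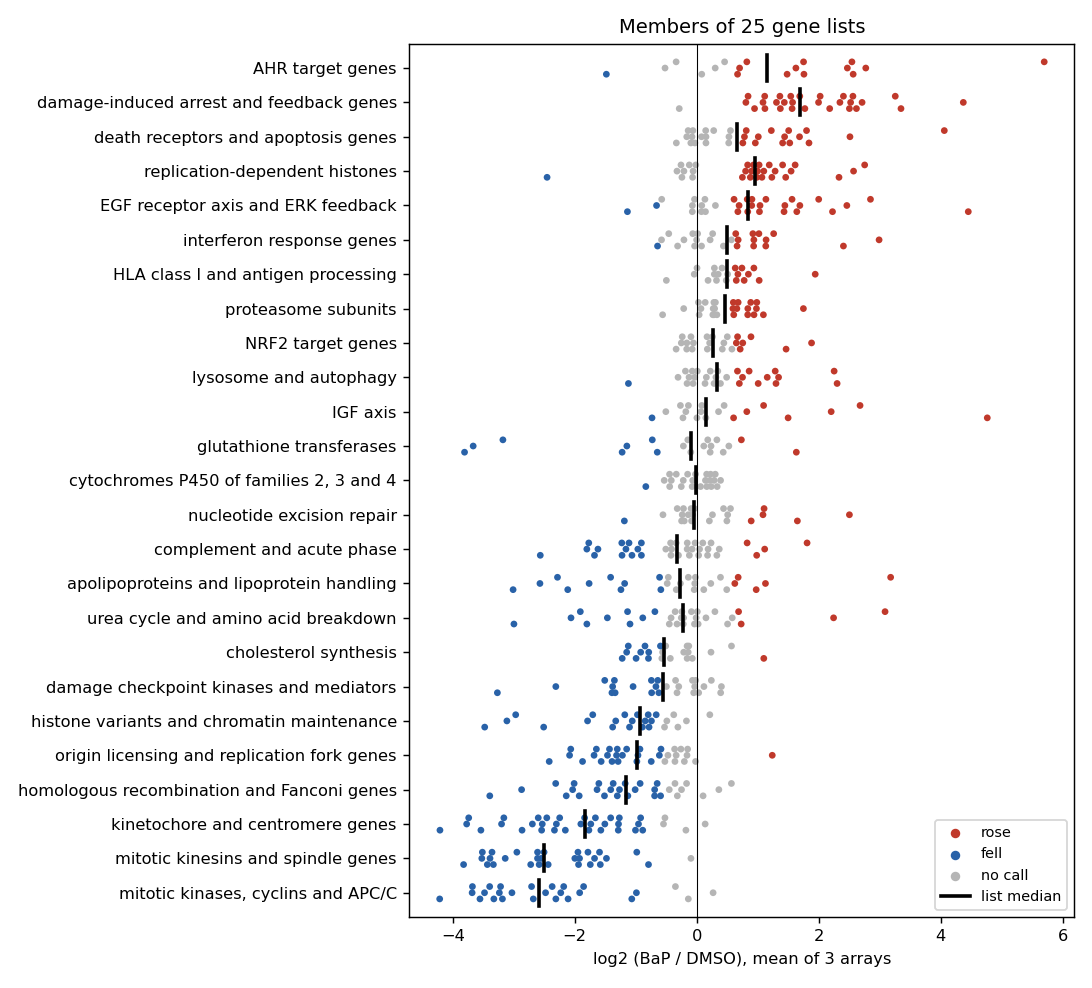
Rows are 25 gene lists and each point is a member at its mean log2 ratio of BaP over DMSO on the x axis, red where it rose, blue where it fell and grey with no call. The black bar is the list median, at 1.69 for damage-induced arrest and feedback genes and at -2.58 for mitotic kinases, cyclins and APC/C, the lists at the top and bottom of the medians shown.

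Promoters of 5 genes that fell are shown because they hold the letters of elements known in cell cycle genes. The elements are TTTGAA or TTTAAA, the cell cycle genes homology region bound by DREAM, and CCAAT, the NF-Y box, each searched on both strands and written in capitals. TTTAAA reads the same on both strands and was counted once, and CCAAT on the other strand reads ATTGG. The windows, from RefSeq and GRCh38.p14, are chr10:60778081-60778380 (plus strand) for CDK1, chr5:69166900-69167199 (plus) for CCNB1, chr16:23678639-23678938 (plus) for PLK1, chr1:43358731-43359030 (plus) for CDC20 and chr18:2571307-2571606 (plus) for NDC80. In CCNB1 the letters CCAAT lie 87 and 55 bases before the start and TTTAAA lies 30 before it. PLK1 has CCAAT at 73 and TTTGAA at 29 bases before the start, with TTTAAA at 148 and 88. CDC20 has CCAAT at 100 and 55, TTTGAA at 65 and TTCAAA, its reverse, at 178. In CDK1 the matches are TTTGAA at 161, CCAAT at 150 and TTTAAA at 131 bases before the annotated start. In NDC80 the only match of these elements is TTCAAA at 3. E2F sites, counted further below, were not marked, and the CDK1 window also holds TTTCGCGC and the NDC80 window TTTGGCGG. CDC20, which activates the ubiquitin ligase of anaphase, had 940, 922 and 1012 units with BaP against 4586, 3678 and 4665 with DMSO (-2.11 ± 0.14).

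CDK1: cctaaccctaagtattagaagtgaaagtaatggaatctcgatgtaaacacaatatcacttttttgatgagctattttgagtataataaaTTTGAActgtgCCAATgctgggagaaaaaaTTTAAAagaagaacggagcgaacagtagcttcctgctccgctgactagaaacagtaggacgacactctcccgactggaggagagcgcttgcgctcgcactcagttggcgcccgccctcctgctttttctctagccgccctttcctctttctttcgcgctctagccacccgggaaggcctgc

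CCNB1: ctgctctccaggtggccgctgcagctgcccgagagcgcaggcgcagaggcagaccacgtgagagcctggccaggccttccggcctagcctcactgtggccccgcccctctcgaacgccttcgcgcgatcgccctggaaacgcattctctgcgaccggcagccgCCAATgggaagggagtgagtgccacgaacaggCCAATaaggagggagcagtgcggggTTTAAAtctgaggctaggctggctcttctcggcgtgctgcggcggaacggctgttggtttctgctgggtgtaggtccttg

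PLK1: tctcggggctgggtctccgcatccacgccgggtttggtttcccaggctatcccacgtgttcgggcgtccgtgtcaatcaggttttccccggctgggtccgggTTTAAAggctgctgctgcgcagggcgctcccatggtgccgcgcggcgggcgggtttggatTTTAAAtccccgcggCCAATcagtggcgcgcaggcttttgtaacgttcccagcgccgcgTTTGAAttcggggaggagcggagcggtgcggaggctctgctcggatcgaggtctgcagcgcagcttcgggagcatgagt

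CDC20: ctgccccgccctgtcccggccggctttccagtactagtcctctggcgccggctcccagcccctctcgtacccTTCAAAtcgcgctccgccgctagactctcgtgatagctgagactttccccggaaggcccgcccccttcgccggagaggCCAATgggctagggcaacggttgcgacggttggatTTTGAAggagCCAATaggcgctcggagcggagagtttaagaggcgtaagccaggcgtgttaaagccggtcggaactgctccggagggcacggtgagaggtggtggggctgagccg

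NDC80: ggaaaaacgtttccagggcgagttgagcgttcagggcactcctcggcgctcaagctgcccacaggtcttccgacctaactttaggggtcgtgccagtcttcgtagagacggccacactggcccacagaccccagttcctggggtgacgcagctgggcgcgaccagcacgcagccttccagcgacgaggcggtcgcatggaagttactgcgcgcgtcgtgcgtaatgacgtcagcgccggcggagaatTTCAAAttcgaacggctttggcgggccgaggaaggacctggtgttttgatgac

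Across the 13693 tested genes with a promoter in the table, 18.3% held TTTGAA or TTTAAA, 36.6% held CCAAT, 4.74% held an E2F site (TTTCGCGC, TTTGGCGC, TTTCCCGC or TTTGGCGG) and 45.5% held GCGTG. Of the 139 promoters of genes that fell at least 4-fold, 77 held TTTGAA or TTTAAA (55.4%), 74 held CCAAT (53.2%), 48 held both (34.5%, against 7.40% of all) and 18 held an E2F site (12.9%). Of the 134 promoters of genes that rose at least 4-fold, 21 held TTTGAA or TTTAAA (15.7%), 42 held CCAAT (31.3%) and 0 held an E2F site, where a count of 0 allows up to 2.24%. Split by size, 10 of 32 promoters of genes that rose 8-fold or more held TTTGAA or TTTAAA (31.2%), and 11 of 102 of those that rose 4 to 8-fold (10.8%). Among the 94 promoters of genes that fell 4-fold outside the 3 mitotic lists, 41 held TTTGAA or TTTAAA (43.6%). Lists of replication, repair and chromosome structure were not removed, so this is not a share outside the cell cycle. By size of the fall the share was 64.1% of 39 promoters for falls of 8-fold or more, 52.0% of 100 for 4 to 8-fold, 23.1% of 481 for 2 to 4-fold and 17.5% of 764 for 1.5 to 2-fold. The median GC content was 61.7% in genes that fell 4-fold, 62.3% in those that rose 4-fold and 63.3% over all. GCGTG was held by 9 of 13 AHR target promoters in the table and by 35.8% of genes that rose 4-fold. These are counts of letters in 1 window per gene, not binding sites.

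**Figure D4:**
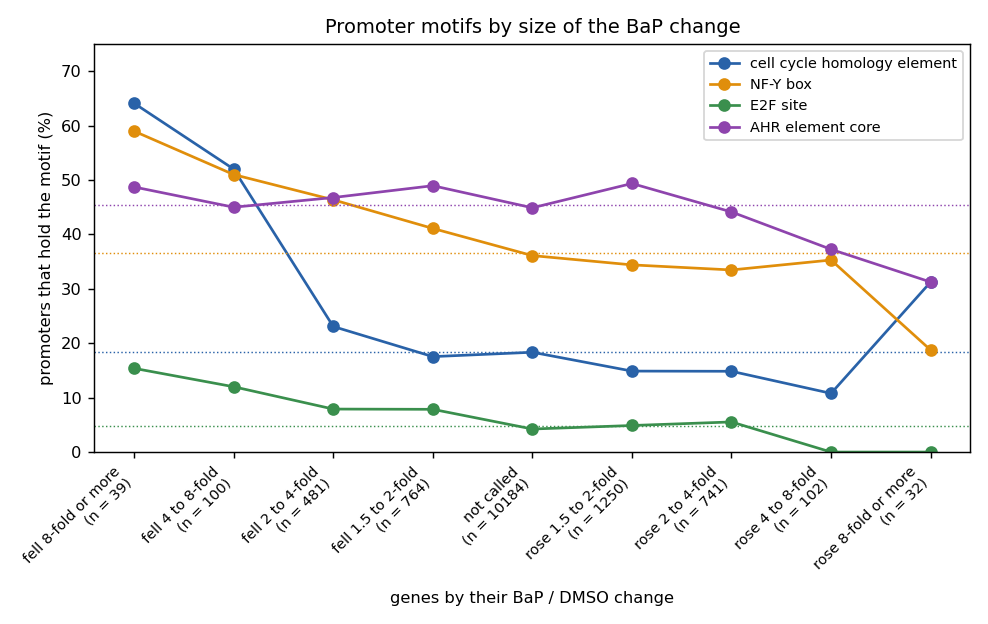
The x axis orders genes by their BaP over DMSO change and the y axis is the percent of promoters that hold each motif, with n promoters per class and dotted lines at the share over all 13693 promoters. The cell cycle homology element was in 64.1% of promoters of genes that fell 8-fold or more and in 18.3% of all.

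Genes of DNA replication fell, with exceptions. Of 32 origin licensing and replication fork genes 21 fell and 1, PCNA, rose (10.0% and 15.1% of all genes), with a median of -0.97. PCNA, the sliding clamp, had 42321, 38863 and 42607 units with BaP against 14305, 14420 and 16483 with DMSO. The clamp loader RFC3 had -2.42 ± 0.10, the helicase subunit MCM2 -2.09 ± 0.01 and CDC45 -2.07 ± 0.03. Among 25 polymerase and nucleotide genes 13 fell and 2 rose. The 2 small subunits of ribonucleotide reductase, which makes deoxynucleotides, went opposite ways, as RRM2 had -2.67 ± 0.05 and the damage-induced RRM2B rose by 1.77 ± 0.08. TK1 had -2.03 ± 0.06 and POLA1 -1.86 ± 0.04. Condensins, cohesins and topoisomerases had 0 risen and 13 fallen of 21, with TOP2A, which untangles DNA, at -3.73 ± 0.08 and NCAPG at -3.62 ± 0.19.

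Of 20 E2F, MYB and pocket protein genes 11 fell and 1 rose, beside 10.0% and 15.1% of all genes. FOXM1, which drives genes of G2, had 1277, 1155 and 1353 units with BaP against 6253, 6280 and 7385 with DMSO (-2.38 ± 0.11), MYBL1 had -2.00 ± 0.11 and the DREAM subunit LIN9 -1.88 ± 0.04. The repressor E2F7 was the one that rose, by 0.89 ± 0.16. Among inhibitors and G1 cyclins 5 of 17 rose and 6 fell. CDKN2B had 1.84 ± 0.11 on the probe used and 0.18 on another, and CCNE2, a cyclin of the G1 to S step, had -0.94 ± 0.14.

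Clustered histone genes, most of whose transcripts lack a poly(A) tail, rose. Of 30 tested 21 rose and 1 fell (15.1% and 10.0% of all genes), with a median of 0.96. The linker histones H1-3, H1-2 and H1-4 rose by 2.75 ± 0.24, 2.57 ± 0.03 and 2.33 ± 0.18. H1-2 had 7016, 7154 and 8312 units with BaP against 1134, 1145 and 1278 with DMSO. H4C3 went the other way, with 11080, 11908 and 12161 units with BaP against 52582, 54386 and 59659 with DMSO (-2.45 ± 0.04). Histone genes are alike in sequence, and shared signal was not tested. Histone variants and chromatin maintenance genes had 0 risen and 18 fallen of 24, with a median of -0.93. UHRF1, which keeps DNA methylation through division, had 907, 909 and 1046 units with BaP against 9842, 10343 and 12438 with DMSO (-3.48 ± 0.09), lamin B1 (LMNB1) had -3.11 ± 0.10 and HMGB2 -2.97 ± 0.07.

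Of 36 complement and acute phase genes 13 fell and 4 rose, beside 10.0% and 15.1% of all genes. Haptoglobin (HP), which binds free haemoglobin, was at least 5.92-fold lower with BaP, with Cy3 saturated on all 3 arrays, and the complement regulators C4BPA and CFI had -1.80 ± 0.10 and -1.77 ± 0.02. C1S, a protease of the classical pathway, rose by 1.81 ± 0.11. Of 30 coagulation and fibrinolysis genes 8 fell and 6 rose. PROCR, the receptor of protein C, had 11508, 10302 and 9956 units with BaP against 473, 398 and 398 with DMSO (4.48 ± 0.02). TFPI2 rose by 2.32 ± 0.67 with array 1 at 1.54 and arrays 2 and 3 at 2.69 and 2.73. Kininogen (KNG1) had -2.22 ± 0.09, the fibrinogen chain FGG -1.72 ± 0.13 and antithrombin (SERPINC1) -1.69 ± 0.07.

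The following lipid lists are read beside 10.0% fallen and 15.1% risen over all genes. Of 27 apolipoprotein and lipoprotein genes 10 fell and 5 rose (8 and 8 with median centring). PLTP, which moves phospholipid between lipoproteins, had 46344, 47081 and 52343 units with BaP against 4399, 4553 and 5150 with DMSO (3.18 ± 0.05). Hepatic lipase (LIPC) had -2.57 ± 0.31, and MTTP, needed to load lipid on APOB, had -2.28 ± 0.09. Cholesterol synthesis had 9 falls and 1 rise of 22 with a median of -0.53, led by HMGCS1 (-1.22 ± 0.01), and 5 falls, 2 rises and a median of -0.28 with median centring. Of 22 genes for fatty acid and triglyceride synthesis 8 fell, led by the desaturase SCD (-2.27 ± 0.12), and 3 rose. Of 28 fatty acid oxidation genes 8 fell and 4 rose. The fatty acid carrier FABP1 had 9266, 9641 and 8809 units with BaP against 45695, 44504 and 43884 with DMSO (-2.47 ± 0.03), and HADH had -2.24 ± 0.20.

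Of 30 urea cycle and amino acid genes 9 fell and 4 rose, beside 10.0% and 15.1% of all genes. Glutamate dehydrogenase (GLUD1) had -2.06 ± 0.02. Glutaminase GLS2 rose by 3.09 ± 0.12 and arginase ARG2 by 2.24 ± 0.09. In glucose metabolism 7 of 32 genes rose and 6 fell, beside 15.1% and 10.0% of all genes. The glucose transporter SLC2A2 had -2.45 ± 0.12 and HK2 -1.54 ± 0.06 with 0.00 on one of its other probes, while HK1 had 1.69 ± 0.12 on the probe used and -0.14 on another. Hepcidin (HAMP), the hormone that limits iron uptake, had 1211, 1101 and 1050 units with BaP against 6244, 5820 and 6267 with DMSO (-2.42 ± 0.11), and the iron exporter that it acts on, SLC40A1, rose by 1.46 ± 0.08. Iron genes counted 7 falls and 2 rises of 18.

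Transcription factors of the hepatocyte counted 7 falls and 2 rises of 25, beside 10.0% and 15.1% of all genes. The bile acid receptor NR1H4 had 1763, 1513 and 1789 units with BaP against 11986, 9658 and 11300 with DMSO (-2.73 ± 0.04), and NR0B2, the repressor that NR1H4 induces, rose by 1.72 ± 0.09. HNF4G had -1.49 ± 0.02 and CEBPD -1.48 ± 0.09. Of 19 plasma carrier genes 8 fell and 4 rose (4 and 6 with median centring), with AFP at -1.74 ± 0.11 and SHBG, the carrier of sex hormones, at 2.22 ± 0.10.

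IGFBP3, which binds insulin-like growth factors, had 7362, 6939 and 8689 units with BaP, against 238, 219 and 238 with DMSO (4.77 ± 0.13, with 3.87 on another probe). Of 19 genes of the IGF axis 7 rose and 1, IGF2BP1, fell, beside 15.1% and 10.0% of all genes. IGFBP1 was at 2.68 ± 0.18 and IGFBP4 at 2.21 ± 0.03. TIMP1, an inhibitor of matrix proteases, was at least 24.2-fold higher with Cy5 saturated throughout. The matrix protein CCN1 had 23923, 27517 and 29638 units with BaP against 1599, 1502 and 1622 with DMSO (3.95 ± 0.14), and 10 of 31 matrix genes rose while 5 fell.

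Of 31 genes of the EGF receptor axis and ERK feedback 20 rose and 2 fell (15.1% and 10.0% of all genes), with a median of 0.84. DUSP5, a nuclear phosphatase of ERK, had 27512, 25526 and 30559 units with BaP, against 1171, 1037 and 1226 with DMSO (4.45 ± 0.03). IER3 rose by 2.85 ± 0.11, the AP-1 member FOSL1 by 2.46 ± 0.02 and EGFR by 2.23 ± 0.06, while ERBB2 had -1.14 ± 0.06. The heparan sulfatase SULF2 rose by 3.27 ± 0.07 and the glypican GPC6 had 299, 331 and 351 units with BaP against 4918, 5123 and 6141 with DMSO (-3.83 ± 0.10). The duct keratin KRT19 rose by 3.56 ± 0.06.

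Of 31 cytokine and chemokine genes 12 rose and 2 fell, beside 15.1% and 10.0% of all genes. LIF had 2.89 ± 0.10 on the probe used and -0.11 on another that stood above background with DMSO on 2 arrays. IL11 rose by 2.66 ± 0.35. The chemokine CXCL3 had -1.68 ± 0.34, with 1914, 739 and 245 units with BaP against 5678, 3219 and 755 with DMSO, so that the arrays differed in level and the groups overlapped across arrays, though not within one. Interferon response genes had 12 rises and 1 fall of 26, with a median of 0.50. The antiviral OAS1 had 4696, 4270 and 6395 units with BaP against 572, 534 and 668 with DMSO (2.99 ± 0.14), TRIM22 rose by 2.41 ± 0.13 and OASL was the one that fell (-0.64 ± 0.08). Genes of HLA class I and antigen processing had 9 rises and 0 falls of 20, led by the peptide transporter TAP1 (1.94 ± 0.05).

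The following lists are read beside 15.1% risen and 10.0% fallen over all genes with loess. Of 26 proteasome subunits 13 rose and 0 fell with a median of 0.46 (0.77 with median centring), PSMC4 at 1.75 ± 0.22 the most. Lysosome and autophagy genes had 11 rises and 1 fall of 28. The protease CTSB was at least 4.93-fold higher, and the autophagy receptor SQSTM1 had 2.25 ± 0.06 on the probe used, with another probe not above background. Among 24 heat shock genes 6 rose and 3 fell, HSPB1 (2.29 ± 0.11) and CRYAB (1.72 ± 0.14) the most upward. ATF4 and unfolded protein response genes gave 8 rises and 3 falls of 28, none above PPP1R15A at 1.22 ± 0.07. With median centring these became 11 rises and 1 fall for heat shock genes and 12 and 1 for ATF4 and unfolded protein genes. Of 31 respiratory chain genes 8 rose and 1 fell, or 15 and 1 with median centring. Of 35 cytosolic ribosomal protein genes 0 rose and 4 fell with a median of -0.20, and with median centring 3 rose, 1 fell and the median was 0.14.

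Some of the largest rises belonged to no list. ZG16B, a secreted lectin, had 14029, 13657 and 16889 units with BaP against 530, 508 and 559 with DMSO (4.64 ± 0.10). TREM2, a lipid receptor of macrophages, had 5478, 5560 and 6213 against 213, 208 and 213 (4.47 ± 0.08, with 4.49 on another probe). NTS, which encodes the gut peptide neurotensin, had 2291, 2684 and 3283 against 77, 75 and 158 (4.21 ± 0.22). These 3 genes were picked for their high ratios, so the gap between their BaP and DMSO values is no further support. The keratin-associated KRTAP3-1 rose by 4.25 ± 0.15, ASB2 by 4.21 ± 0.15, the surface protein CD109 by 4.20 ± 0.03, the disulfide isomerase AGR2 by 4.13 ± 0.13 and the hydroxy acid receptor HCAR3 by 4.08 ± 0.12. CD3D, a T-cell receptor subunit, had 5.26 ± 0.15, with 6815, 7612 and 8563 units with BaP against 154, 132 and 166 with DMSO, and its probe stood above background by the filter used on 2 of 3 arrays in each dye.

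To show where BaP differed from the rest of the series, its ratios were contrasted in the same limma fit with those of PH, a smaller hydrocarbon, and with the mean of the other 7 compounds. Doses are not given and may differ, so these are differences between the treatments as applied, each against DMSO RNA of its own arrays. The DMSO channel of BaP arrays was most like that of PH arrays (Spearman 0.958 to 0.979 across probes) and least like that of NP arrays (0.649 to 0.695). It was at 0.911 to 0.956 with CHR, BF and BA arrays and at 0.668 to 0.747 with 3MC and DBA arrays. The mean of the other 7 thus takes in compounds whose solvent channels were unlike that of BaP, and what this does to the contrast was not tested. Whether BaP and PH arrays share DMSO RNA is not stated. BaP minus PH was higher for 2063 genes (11.9%) and lower for 1703 (9.85%), or 2879 and 1276 with median centring. BaP minus the mean of the other 7 was higher for 1846 (10.7%) and lower for 819 (4.74%).

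Counts set against PH are read beside 11.9% higher and 9.85% lower over all genes. Of 29 damage-induced arrest and feedback genes 25 were higher with BaP and 0 lower. Of 26 mitotic kinase and cyclin genes 22 were lower with PTTG1 alone higher, and 25 of 35 kinetochore genes were lower. Of 18 AHR targets 9 were higher with BaP than with PH, UGT1A6 by 3.36 and CYP1A1 by 3.06, and 2 were lower, CYP2S1 by 0.82 and NFE2L2 by 1.14. The largest differences upward were AGR2 (5.17), with ratios of 4.13 for BaP and -1.03 for PH, CD3D (4.86), KRTAP3-1 (4.63), the WNT inhibitor DKK1 (4.59) and the acetyltransferase NAT8 (4.43). The largest downward was HAMP at -5.34, with ratios of -2.42 for BaP and 2.92 for PH (adjusted p 8.64e-22), followed by GPC6 (-3.24), WWOX (-3.08), GSTA2 (-3.01) and GSTA1 (-2.92). WWOX, an oxidoreductase, had -3.31 ± 0.14 for BaP on the probe used and 0.50, -1.98 and -1.52 on 3 others. DUSP5 (difference 0.27, adjusted p 0.554), PLK3 (-0.20) and the kinesin KIF20A (-0.02) did not pass in this contrast.

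Counts against the mean of the other 7 compounds are read beside 10.7% higher and 4.74% lower over all genes. Of 29 damage-induced arrest and feedback genes 24 were higher with BaP and 0 lower. Of 26 mitotic kinase and cyclin genes 22 were lower with FZR1 alone higher, and 26 of 29 kinesin and spindle genes were lower. Of the 11 genes of the metallothionein list 8 were lower and 0 higher. These lists were contrasted with the mean of the 7 here, not with CHR or BF alone. NTS stood furthest up, by 4.19, with a ratio of 4.21 for BaP and -0.20 to 0.23 for the others. DKK1 was higher by 4.15, with 3.95 for BaP and -0.88 to 0.64 for the others, TREM2 by 3.96, ZG16B by 3.68 and CD3D by 3.38. Furthest down were HAMP (-3.03), MED18 (-2.94), a subunit of the Mediator complex with -2.81 for BaP and -0.59 to 1.47 for the others, DEPDC1 (-2.80), GSTA2 (-2.74) and NEIL3 (-2.64). CYP1A1 was higher than the mean of the others by 2.01 with ratios of 5.81 for CHR and 6.23 for BF. The BaP ratio of 5.70 rests on saturated pixels in Cy5 on 2 of 3 arrays, so it is not ranked against them. The 186 genes that rose 4-fold with BaP, chosen for that, had medians of 2.01 with CHR, 1.61 with BF, 0.64 with 3MC, 0.57 with DBA, 0.57 with PH, 0.56 with BA and 0.25 with NP, and the 169 that fell had -1.37 with CHR, -1.73 with BF, -0.94 with 3MC, -0.84 with DBA, -1.32 with PH, -0.78 with BA and -0.44 with NP.

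**Figure D5:**
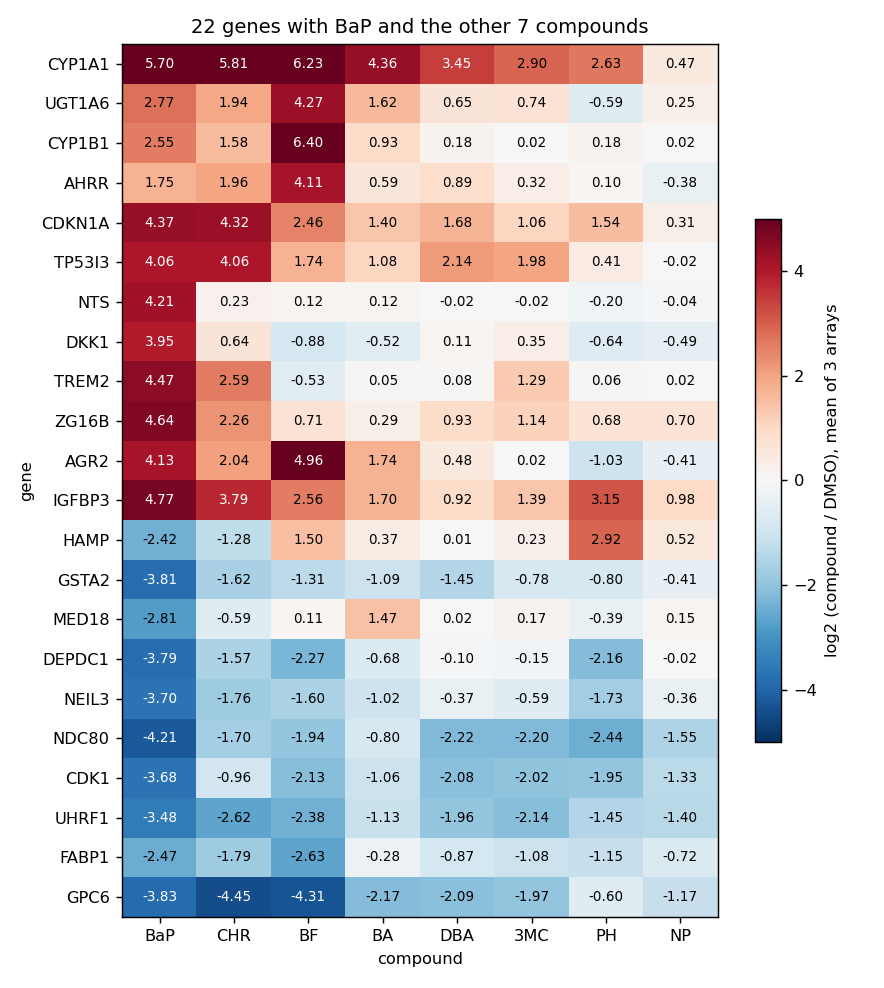
Rows are 22 genes and columns the 8 compounds, BaP leftmost, with the mean log2 ratio over DMSO of 3 arrays printed and coloured in each cell. NTS has 4.21 with BaP and -0.20 to 0.23 with the others, while CYP1A1 is above 2 with every compound except NP (0.47). BaP ratios of CYP1A1, CDKN1A and TP53I3 rest on saturated pixels in Cy5 on 2 or 3 arrays.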

How the data were processed

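The deposited scanner output holds raw intensity values per spot for both dyes with a local background, per the file headers, and the percent of saturated pixels of the spot, also as deposited. The authors also deposited log2 ratios, whose normalisation is not given in the sources used here. Their columns for BaP correlated at 0.981 to 0.983 with the ratios computed here and served as an alternative, and 4 columns of other compounds that matched no spot order were left out. RNA was extracted with Trizol, per the labels' protocols.

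Intensities of 24 arrays (8 compounds, 3 arrays each) were read with Python 3.11.15 and pandas 2.3.3 and analysed with R 4.3.3 and limma 3.58.1. The ninth compound was on another platform and was not analysed here. Background was corrected with normexp (offset 50), and each array was normalised by loess, with control spots and spots flagged at -75 or below at weight 0. Nothing was scaled between arrays. Probes were named through RefSeq (26488 of 41000), the probe with the highest mean level stood for its gene, and it was tested where it stood over 2 background SDs above background on 2 or 3 arrays of any 1 compound. The number of arrays limits the precision. Other probes of genes changed 2-fold or more had the same direction in 755 of 840 cases, and their ratios were 0.785 of that used at the median. A change is given as a bound where saturated pixels occurred on all 3 arrays in 1 channel.

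The model had 1 mean per compound, and the spread behind each p-value was pooled over all 24 arrays. BaP was tested as its mean ratio against 0, and against PH and the mean of the other 7 by contrasts, with 2-sided p-values and the Benjamini-Hochberg adjustment across all 17290 genes. On simulated ratios with 200 changed genes the calls found 98% to 100% of 2-fold changes, with no more than 2 unchanged genes called. Recovery of changes near 1.5-fold, the threshold of the calls, is not given. Simulated errors were independent between arrays, so the simulation could not test technical repeats or dye bias. The members and the gene lists were chosen with earlier results of these data known, so their counts are descriptions and no list was tested. Named genes are the 15 highest and 15 lowest ratios of called genes with 1 sign on every BaP array and either a bound or both channels above background throughout (which leaves out CD3D, named by the contrasts), the 3 highest and 3 lowest changed members of each list, all AHR targets and the 5 highest and 5 lowest of each contrast. Many others, such as HMOX1, EPHX1, FAS, BAX, BBC3, MDM2, PLK1 and CDC20, were chosen after their values were seen. They are not among the named genes counted under the alternatives. Some genes that the rule would name are not reported here. Some genes lack a promoter in the RefSeq table. Same-numbered arrays of different compounds did not deviate together (mean residual correlation 0.0029, and -0.021 to 0.070 for pairs with BaP), so no pairing was used. Alternatives were other background corrections, normalisations, filters, probes, thresholds, a replicate block, the authors' values and leaving out each array.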

Additional observations from a re-analysis of the deposited data

How the results depend on the processing

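A 2-fold threshold gave 1106 higher and 767 lower genes for BaP against DMSO, 761 and 564 for BaP minus PH, and 506 and 296 for BaP minus the mean of the other 7, since fewer genes reach it. The authors' values gave 1101 higher genes in the last contrast, where 20 columns were usable and fewer genes were tested, and the cause was not tested further. All other counts over all genes stayed within 1.5 times those reported. Leaving out each BaP array gave 2564 to 2660 higher and 1735 to 1755 lower against DMSO, 1996 to 2105 and 1688 to 1743 against PH, and 1759 to 1881 and 822 to 850 against the other 7, with 1804 and 808 without BA array 1. A fit with the array number as a replicate block gave 2608 and 1736, 2065 and 1703, and 1846 and 820, and changed no call of a named gene. Of 4595 pairs of a named gene with an alternative, 4488 kept direction and call, 100 no longer passed (64 of them at the 2-fold threshold), 5 passed anew and 2 reversed. Both reversals came with the mean over a gene's probes, DNAJC3 at 0.061 and SLC7A5 at -0.027, whose probes disagree. Of list counts, 43 of 1680 moved by more than 1.5 times, 24 of them with median centring. Dim and saturated probes limit what can be measured, and changes put in after normalisation in the simulation did not test losses there.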
